A study of Mus musculus with 6 samples.

Results

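The expression of 10 genes that act in holding sister chromatids together, compacting chromosomes and releasing the chromatids was followed: Rad21, Smc3, Stag1, Nipbl, Smc2, Smc4, Ncaph, Ncapg, Ncapd2 and Espl1. They were chosen by name, by matching symbols in GENCODE M21 to the Ensembl identifiers of the count tables. All 10 of the 10 were found among 53801 identifiers, and all 10 had enough counts to be among the 14531 genes tested.

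The libraries came from MC3T3-E1, a mouse pre-osteoblast line, and fall into 2 groups of 3. The scramble group carried a lentivirus with a scrambled non-silencing RNA, and the Hdac4-shRNA group carried a lentivirus with a hairpin against Hdac4. In both groups the vector also encoded the green fluorescent protein ZsGreen1 and puromycin resistance, and infected cells were kept in 5 μg/mL puromycin for 7 days. The labels describe 3 Hdac4 hairpins without naming the sequenced one, which the study's text gives as Hdac4-shRNA3. Whether the selected cells were pools or clones, and whether the 3 RNA samples of a group came from separate infections, is not given in the sources used here, so p-values measure the spread between these samples.

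Cohesin is a ring that encircles both sister chromatids after DNA replication. Its ATPase arms are Smc1a and Smc3, the kleisin Rad21 closes the ring, and Stag1 or Stag2 binds Rad21. Nipbl loads the ring onto DNA. Condensin is a related ring, built on Smc2 and Smc4, that folds chromosomes for mitosis. Condensin I adds Ncaph, Ncapg and Ncapd2, and condensin II adds Ncaph2, Ncapg2 and Ncapd3. Separase, encoded by Espl1, is the protease that cuts Rad21 at anaphase once its inhibitor securin has been destroyed. In dividing pre-osteoblasts, as in other dividing cells, these proteins are needed in each mitosis, and cohesin also shapes chromatin loops between mitoses.

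The depth was even, between 29096544 and 31651826 counts on genes in a library. The targeted mRNA, Hdac4, had raw counts of 1243, 1204 and 1136 with the scramble vector and of 950, 927 and 887 with the hairpin, or 73.6% of the scramble level after normalization (log2 fold change -0.44, SE 0.057, edgeR adjusted p = 8.98e-07). Of its exon bases, 22.4% are shared with Gm26720. The line's markers were only partly present. Of 10 osteoblast markers, 7 were tested, with 5 higher and 1 lower in Hdac4-shRNA libraries, whereas Alpl, Bglap and Ibsp were close to 0 in both groups. All 6 muscle markers were present and lower, with a summed level of 846 to 887 CPM (counts scaled to library size with TMM factors) in scramble libraries and 115 to 130 in Hdac4-shRNA libraries. In the same order, the 10 osteoblast markers summed to 3576 to 3607 and 12965 to 13569 CPM. Most of the scramble sum came from Spp1, the marker that was lower, with means of 3151 and 2044 CPM. Most of the Hdac4-shRNA sum came from Col1a1, with means of 338 and 11006 CPM, so the sums do not describe the markers as a group. The 6 adipocyte markers summed to 43.1 to 46.7 and 8.88 to 10.1 CPM (2 tested, both lower, Lep at 0 throughout). The 6 neural markers were at 163 to 167 and 73.5 to 83.9 CPM (2 tested, 1 lower and 1 higher, Snap25 and Sox10 at 0). Nearly all of the neural sum came from Tubb3, with means of 165 and 77.2 CPM. Epithelial markers summed to 5.64 to 6.51 and 7.07 to 8.56 CPM (1 of 6 tested, higher), blood cell markers to 1.64 to 2.75 and 5.13 to 6.08 CPM (3 of 7 tested, 2 higher, Adgre1 and Cd3e at 0), and endothelial markers to 0.262 to 0.421 and 2.81 to 3.15 CPM (1 of 6 tested, higher, Emcn and Cldn5 at 0). The part of these differences in the results below was not tested.

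Most of the 10 genes were lower after Hdac4 knockdown, but not evenly. The condensin I genes and separase fell to between 31.2% and 62.0% of the scramble level, and the cohesin kleisin Rad21 fell to 46.5%. Stag1 was lowered slightly, Nipbl was not called, and Smc3 was slightly higher. A gene was called when its adjusted p-value, from edgeR's quasi-likelihood test over all tested genes, was below 0.05 and its log2 fold change was beyond 0.05 in size. By this rule 8 of the 10 were lower, 1 was higher and 1 was not called. Among all tested genes 37.1% were called lower and 38.0% higher, so the background of change was large. The balance of these shares moved with the scaling, to 4897 genes lower and 5987 higher with library size alone and to 4608 lower and 6316 higher with upper quartile normalization, against 5393 and 5521 here, and the 8 members remained lower under each. The median log2 fold change of the 10 was -1.03, against 0.014 for all tested genes. A log2 fold change under -1, that is a loss of more than 50% of the mRNA, was reached by 5 of the 10 and by 10.6% of all tested genes. For 8 of the 10, every Hdac4-shRNA library lay below every scramble library, which held for 38.0% of all tested genes. In bulk RNA, fewer dividing cells and less of these mRNAs per cell cannot be told apart.

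**Figure D1:**
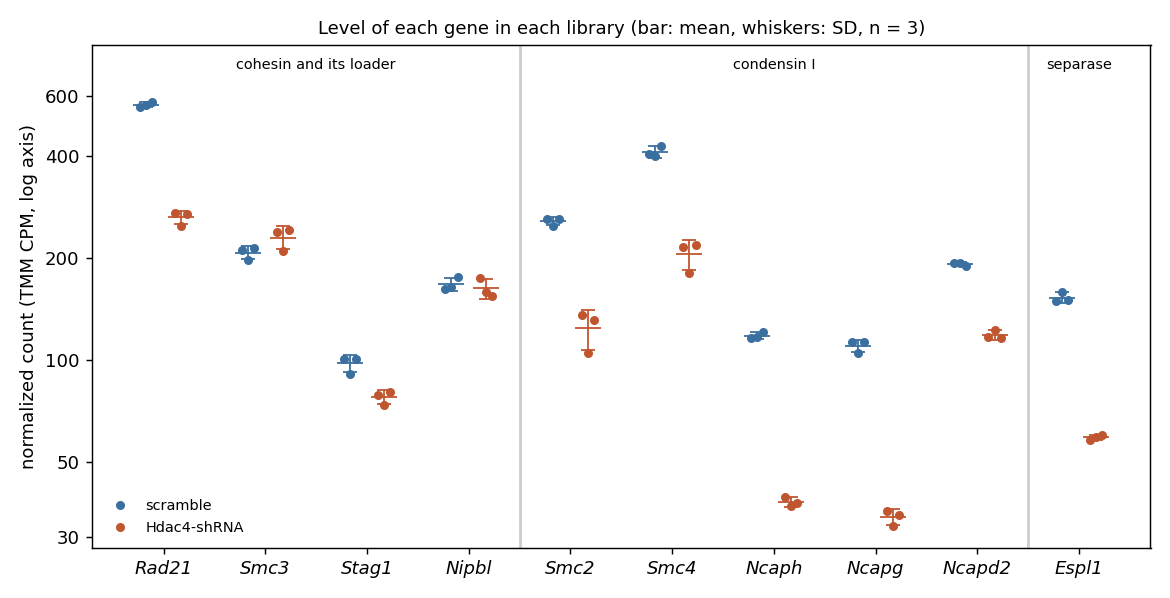
The plot shows the normalized count (CPM after TMM scaling, log axis) of each of the 10 genes in each of the 6 libraries, with scramble in blue, Hdac4-shRNA in orange, a bar at the mean and whiskers of 1 SD. The groups overlap for Smc3 and Nipbl, and the Hdac4-shRNA points lie below the scramble points for the other 8 genes.

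Rad21 (ENSMUSG00000022314) is at 51962240 to 51991747 on chromosome 15 (GRCm38, minus strand) and shares no exon bases with another annotated gene. Its level was 558, 565 and 575 CPM in scramble libraries and 271, 249 and 270 CPM in Hdac4-shRNA libraries. Every Hdac4-shRNA library was far below every scramble library, and the SD was 8.37 CPM in scramble and 12.8 CPM in Hdac4-shRNA libraries. The log2 fold change was -1.10 (SE 0.0415, edgeR adjusted p = 4.85e-15). Of all tested genes, 9.60% had a change as low or lower.

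Smc3 (ENSMUSG00000024974; chromosome 19, 53600398 to 53645833, plus strand), the arm that Rad21 binds to close the ring, did not follow Rad21. It was at 211, 197 and 214 CPM in scramble libraries and 239, 209 and 241 CPM in Hdac4-shRNA libraries. The second Hdac4-shRNA library lay within the scramble range, so the groups overlapped. The log2 fold change of 0.15 (SE 0.0517, edgeR adjusted p = 0.0143) passed the threshold, but the call was lost without scramble replicate 2 (0.10, adjusted p = 0.12) and without Hdac4-shRNA replicate 3 (0.12, adjusted p = 0.0767).

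Stag1 (ENSMUSG00000037286; chromosome 9, 100597798 to 100959375, plus strand), an alternative to Stag2 in the ring, was at 101, 91.1 and 101 CPM in scramble libraries and 79.1, 73.7 and 80.5 CPM in Hdac4-shRNA libraries. The lowest scramble library was still above the highest Hdac4-shRNA library. The log2 fold change was -0.33 (SE 0.0524, edgeR adjusted p = 1.10e-05), and 28.1% of all tested genes changed by as much or more in this direction.

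The loader Nipbl (ENSMUSG00000022141; chromosome 15, 8290617 to 8444463, minus strand) was measured at 162, 164 and 176 CPM in scramble libraries and 175, 159 and 154 CPM in Hdac4-shRNA libraries. The libraries of the groups were interleaved. The log2 fold change of -0.04 (SE 0.0499, edgeR adjusted p = 0.457) had a 95% interval from -0.14 to 0.06, and its sign changed with the scaling of the libraries, to 0.01 with library size alone and 0.05 with upper quartile normalization.

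Both condensin ATPases fell by about the same amount. Smc2 (ENSMUSG00000028312; chromosome 4, 52439243 to 52488260, plus strand) was at 261, 249 and 260 CPM in scramble libraries and 136, 105 and 131 CPM in Hdac4-shRNA libraries. Its log2 fold change was -1.05 (SE 0.0657, edgeR adjusted p = 1.73e-11). Smc4 (ENSMUSG00000034349; chromosome 3, 69004738 to 69034623, plus strand) was at 404, 398 and 428 CPM in scramble libraries and 216, 181 and 219 CPM in Hdac4-shRNA libraries. Its log2 fold change was -1.0 (SE 0.0564, edgeR adjusted p = 3.68e-12). For both genes the second Hdac4-shRNA library was the lowest of the 6, and without it the log2 fold changes were -0.95 and -0.91. That library held the lowest value of its group for 7 of the 10 genes, against 36.2% of all tested genes. The second scramble library held the lowest value of its group for 5 of the 10, against 33.3% of all tested genes. These 5 are all among the 7.

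Among the condensin I subunits that do not hydrolyse ATP, the kleisin Ncaph and the HEAT-repeat subunit Ncapg fell most. Ncaph (ENSMUSG00000034906; chromosome 2, 127103809 to 127133954, minus strand) was at 116, 117 and 121 CPM in scramble libraries and 39.6, 37.2 and 37.8 CPM in Hdac4-shRNA libraries, a log2 fold change of -1.63 (SE 0.0482, edgeR adjusted p = 1.07e-16). Ncapg (ENSMUSG00000015880; chromosome 5, 45669919 to 45700546, plus strand) was at 113, 105 and 113 CPM in scramble libraries and 36.0, 32.4 and 34.9 CPM in Hdac4-shRNA libraries, a log2 fold change of -1.68 (SE 0.0537, edgeR adjusted p = 3.63e-16). For both, no Hdac4-shRNA library came near the scramble range. Of the 7066 exon bases of Ncapg, 944 are shared with Lcorl on the other strand.

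The other HEAT-repeat subunit, Ncapd2 (ENSMUSG00000038252; chromosome 6, 125168007 to 125191701, minus strand), was at 193, 193 and 189 CPM in scramble libraries and 117, 123 and 116 CPM in Hdac4-shRNA libraries. It kept 62.0% of the scramble level, compared with 32.3% for Ncaph and 31.2% for Ncapg. The log2 fold change was -0.69 (SE 0.0421, edgeR adjusted p = 1.21e-11), with a 95% interval from -0.77 to -0.61 that did not meet those of Ncaph (-1.72 to -1.53) and Ncapg (-1.79 to -1.58). Ncapd2 shares 237 of its 6267 exon bases with Gm28967 and Scarna10.

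Espl1 (ENSMUSG00000058290; chromosome 15, 102296266 to 102324357, plus strand), which encodes separase, was at 149, 159 and 150 CPM in scramble libraries and 58.0, 59.4 and 60.2 CPM in Hdac4-shRNA libraries. The Hdac4-shRNA libraries lay close together (SD 1.14 CPM) and far below the scramble libraries. The log2 fold change was -1.37 (SE 0.0453, edgeR adjusted p = 6.47e-16), and 7.71% of all tested genes changed by as much or more in this direction.

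The promoters of genes expressed in G2 and M phase often carry a CHR element (letters TTTGAA), frequently with CCAAT boxes, whereas S phase genes often carry E2F sites (searched as TTTCGCGC and GGCGGGAA). Windows of 300 bases, from 250 before to 50 after the RefSeq start site in GRCm38.p6, were found for 7 of the 10 genes, all except Rad21, Nipbl and Smc4. Both strands were searched, and no matches overlapped. A TTTGAA match was present in 4 of the 7 windows (Smc2, Ncapg, Ncapd2 and Espl1), against 17.9% of 32851 windows in the table. A CCAAT match was present in 5 of the 7, in these 4 and in Stag1, against 37.4% of all windows. Neither E2F sequence was found in any of the 7, with background shares of 0.323% and 2.19%. Only these exact letters were searched, so E2F sites with other letters were not counted. Of the partner and regulator genes described below, 57 had a window, and 22 held TTTGAA and 35 held CCAAT in any of their windows. These are counts of genes, whereas the background shares are of windows, so the measures differ. A match describes letters only, and binding was not measured.

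The windows of 4 genes are shown as examples. Espl1 and Ncapg fell and held a TTTGAA match near the start site, Ncaph fell without any match, and Smc3 did not fall. Capitals mark TTTGAA or CCAAT on either strand, and each window reads 5′ to 3′ on the strand of the gene. In Espl1 (chr15:102296043-102296342, plus strand) the TTTGAA match began at base -27 and the CCAAT match at -44, counted from the start site. In Ncapg (chr5:45669675-45669974, plus strand) the TTTGAA match began at -30 and the CCAAT match at -176. Ncaph (chr2:127133905-127134204, minus strand), with a log2 fold change of -1.63 beside -1.68 for Ncapg, held no match, and neither did Smc3 (chr19:53600146-53600445, plus strand). The windows of Smc2 and Ncapd2, which also held TTTGAA, are not shown. In Ncapd2, with a log2 fold change of only -0.69, the TTTGAA match began at -123 and CCAAT matches at -177, -148 and -48.
Espl1: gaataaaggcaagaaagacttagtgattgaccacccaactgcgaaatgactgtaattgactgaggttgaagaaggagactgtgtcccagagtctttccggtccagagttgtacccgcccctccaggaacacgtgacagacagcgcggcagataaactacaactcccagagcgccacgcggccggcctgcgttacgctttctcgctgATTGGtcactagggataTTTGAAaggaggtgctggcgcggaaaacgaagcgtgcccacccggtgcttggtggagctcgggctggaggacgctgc
Ncapg: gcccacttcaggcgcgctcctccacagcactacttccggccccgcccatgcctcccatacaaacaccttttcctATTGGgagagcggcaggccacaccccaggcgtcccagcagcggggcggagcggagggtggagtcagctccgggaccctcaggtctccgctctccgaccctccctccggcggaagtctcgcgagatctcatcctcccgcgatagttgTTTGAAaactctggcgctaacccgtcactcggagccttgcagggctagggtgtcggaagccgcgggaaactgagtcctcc
Ncaph: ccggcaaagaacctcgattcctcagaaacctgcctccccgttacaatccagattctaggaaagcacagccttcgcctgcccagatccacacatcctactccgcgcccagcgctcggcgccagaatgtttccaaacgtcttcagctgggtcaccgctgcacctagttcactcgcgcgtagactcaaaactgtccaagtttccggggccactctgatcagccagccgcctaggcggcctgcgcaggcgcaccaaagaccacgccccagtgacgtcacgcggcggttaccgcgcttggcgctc
Smc3: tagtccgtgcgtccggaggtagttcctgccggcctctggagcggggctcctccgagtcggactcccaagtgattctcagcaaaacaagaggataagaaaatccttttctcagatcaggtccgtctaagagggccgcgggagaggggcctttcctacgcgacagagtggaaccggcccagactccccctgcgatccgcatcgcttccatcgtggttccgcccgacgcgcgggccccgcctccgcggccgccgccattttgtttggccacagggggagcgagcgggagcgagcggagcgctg

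The subunits of a complex were next compared with each other within each library, as CPM per kb of exon, since counts of genes of different length are not comparable. In scramble libraries the Rad21 level per kb was 134 ± 1.98 (SD, n = 3) and that of Smc3 was 37.4 ± 1.62, so Rad21 mRNA was 3.46, 3.75 and 3.52 times as abundant as Smc3 mRNA per kb. In Hdac4-shRNA libraries this ratio was 1.48, 1.56 and 1.47. Between the ATPase arms, the Smc3 to Smc1a ratio was 0.841, 0.774 and 0.841 in scramble and 1.37, 1.21 and 1.37 in Hdac4-shRNA libraries, below 1 in every scramble library and above 1 in every Hdac4-shRNA library. The Stag1 to Stag2 ratio was 0.449, 0.411 and 0.432 in scramble and 0.588, 0.654 and 0.618 in Hdac4-shRNA libraries, so Stag2 was the more abundant per kb in all 6. The groups did not overlap for any of these 3 ratios. Of 10 ratios compared between the groups, 7 did not overlap, each with p = 0.1 in a two-sided exact permutation test (0.143 after Benjamini-Hochberg adjustment over the 10). The smallest p that 3 libraries against 3 allow is 0.1, so no ratio could pass the threshold. Among single tested genes, 38.0% had every Hdac4-shRNA library below every scramble library. For other gene pairs the share was not computed, so the count is not a result about these subunits. A ratio also restates the unequal fold changes of its genes.

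Smc2 to Smc4 was 0.614, 0.595 and 0.577 in scramble and 0.596, 0.55 and 0.568 in Hdac4-shRNA libraries, with overlapping groups (exact permutation p = 0.3). The kleisin ratio of condensin I to condensin II, Ncaph to Ncaph2, was 0.467, 0.424 and 0.478 in scramble and 0.253, 0.232 and 0.244 in Hdac4-shRNA libraries. Of the 4198 exon bases of Ncaph2, 829 are shared with Sco2 and Tymp. The matching ratio of Ncapg to Ncapg2 was 0.921, 0.906 and 0.935, against 0.532, 0.543 and 0.546. Both were lower in every Hdac4-shRNA library than in any scramble library. The third pair, Ncapd2 to Ncapd3, was at 3.77, 3.42 and 3.39 and then at 3.72, 3.94 and 3.69, with overlap. Summed per kb, the 3 non-SMC subunits of condensin I were at 44.4% of the scramble level and those of condensin II at 58.8%. The condensin ATPases were at 49.4% and the cohesin ATPases, Smc3 and Smc1a together, at 87.9%. All these sums weight each subunit by its level per kb, and only exon length was used for them. In scramble libraries Ncaph2 gave 60.3 of the 86 of condensin II, and Ncapd2 gave 30.6 of the 73.6 of condensin I.

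**Figure D2:**
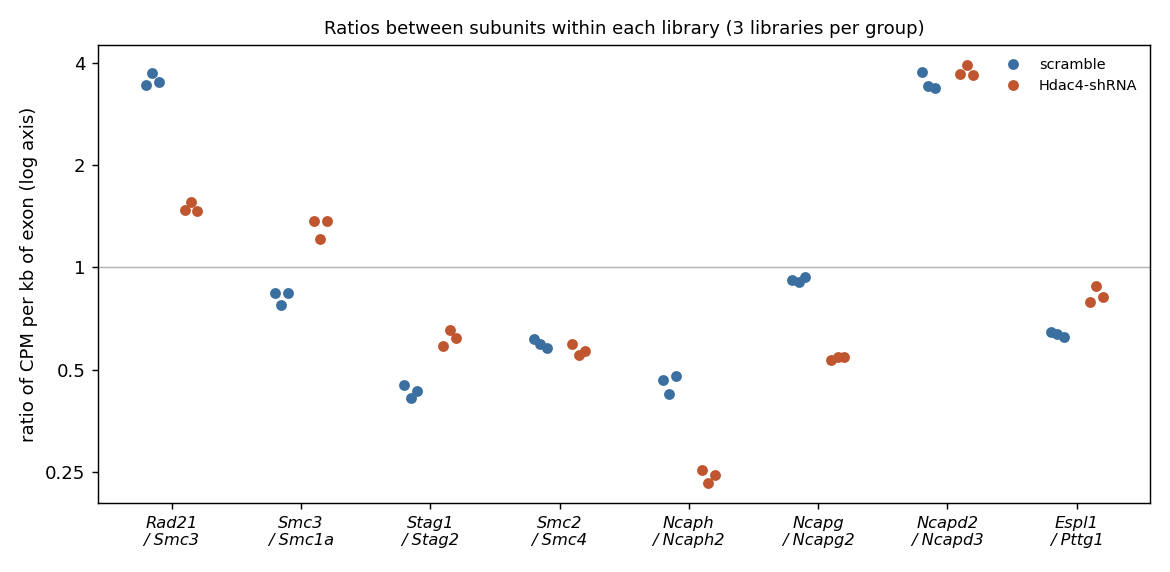
The plot shows 8 ratios of per-length levels (CPM per kb of exon, log axis) in each library, with scramble in blue and Hdac4-shRNA in orange, and a line at 1. The Rad21 to Smc3 ratio is lower in all 3 Hdac4-shRNA libraries, the Ncaph to Ncaph2 and Ncapg to Ncapg2 ratios are lower as well, and the Smc2 to Smc4 and Ncapd2 to Ncapd3 ratios overlap.

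By level per kb, the order of the 10 genes in scramble libraries was Rad21 (134 ± 1.98), Smc4 (78.7 ± 3.02), Smc2 (46.9 ± 1.22), Smc3 (37.4 ± 1.62), Ncapd2 (30.6 ± 0.418), Ncaph (27.5 ± 0.62), Nipbl (17.8 ± 0.813), Espl1 (17.5 ± 0.593), Ncapg (15.6 ± 0.662) and Stag1 (8.32 ± 0.508), each as mean ± SD of 3 libraries. Nipbl and Espl1 did not differ beyond their spread. In Hdac4-shRNA libraries Smc3 (41.5 ± 3.27) and Smc4 (39.4 ± 4.0) came after Rad21 (62.2 ± 3.03) and did not differ beyond their spread. The lowest there was Ncapg (4.87 ± 0.262), followed by Stag1 (6.60 ± 0.306) and Espl1 (6.77 ± 0.13), of which the last 2 overlapped. With the longest coding transcript as the length, Rad21, Smc4 and Smc2 still led in scramble libraries (143, 95.0 and 47.5), but Ncaph (43.9) came before Smc3 (42.7), so the order below these depended on the length used. By that length the lowest mean in Hdac4-shRNA libraries was that of Espl1 (8.89), followed by Ncapg (9.29) and Stag1 (12.6).

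The partners and regulators of these genes were described from 8 lists of 66 genes, of which 62 were tested. In all, 51 were lower, 3 were higher and 8 were not called, with a median of -0.73 on the log2 scale. The shares are read against the 37.1% and 38.0% of all tested genes called lower and higher, and no list was tested as a set.

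The remaining ring subunits of mitotic cohesin both fell, with log2 fold changes of -0.53 for Smc1a (SE 0.0383, edgeR adjusted p = 1.55e-10) and -0.85 for Stag2 (SE 0.0554, edgeR adjusted p = 3.16e-11). Of 9 genes for loading, release and acetylation of cohesin, 5 were lower and 4 were not called, and with upper quartile normalization 4 were lower and 2 higher. Mau2, the partner of Nipbl in the loader, had a log2 fold change of -0.02, and the Nipbl to Mau2 ratio per kb was 2.30 ± 0.186 and 2.26 ± 0.106 (SD, n = 3). The ring-binding proteins Pds5a (-0.02) and Pds5b (0.02) were not called either. The releasing factor Wapl was lower (-0.28). A pair of proteins that secure the ring during S phase, the acetyltransferase Esco2 and sororin, encoded by Cdca5, had log2 fold changes of -0.73 and -0.74, whereas the other acetyltransferase, Esco1, was at -0.22 with overlapping groups. Hdac8, which deacetylates Smc3, was not called (log2 fold change 0.20, SE 0.0963, edgeR adjusted p = 0.0729). Ctcf, which stops cohesin at loop anchors, was lower (-0.44).

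All 10 genes on the list for protection and correction at centromeres were lower, with a median of -1.40. They include the shugoshins Sgo1 (-1.08) and Sgo2a (-1.39), which shield centromeric cohesin, the kinases Bub1 (-1.77), Aurkb (-1.84), Haspin (-1.63) and Plk1 (-1.76), and at the other end Ppp2r1a (-0.30), a scaffold of protein phosphatase 2A. Sgo2a shares 2455 of its 7007 exon bases with Kctd18. Of the 4 meiotic cohesin genes none was tested. Rad21l had no counts in any library, and the largest count among Smc1b, Rec8 and Stag3 was 7.

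Condensin II and its inhibitor Mcph1 were all lower, within a narrow range from -0.72 for Ncaph2 to -0.95 for Mcph1. Ncapg2 was at -0.91 and Ncapd3 at -0.79, so all 3 condensin II subunits lay between Ncapd2 (-0.69) and the condensin ATPases. In the complex of Smc5 and Smc6, which acts in DNA repair, 6 of 8 genes were lower and 2 were not called, and with library size alone or upper quartile normalization 5 were lower and 1 higher. Smc6 had a log2 fold change of -0.64 and the subunit Nsmce1 had the lowest of the list, -0.80. Smc5 was at -0.12, with an edgeR adjusted p = 0.0498 and overlapping groups.

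Separase is held inactive by securin and by Cdk1 with cyclin B, and is set free when the anaphase-promoting complex, with Cdc20, marks securin and cyclin B for destruction. Securin, encoded by Pttg1, fell further than Espl1, with a log2 fold change of -1.75 (SE 0.0623, edgeR adjusted p = 2.02e-15). The Espl1 to Pttg1 ratio per kb was 0.644, 0.635 and 0.625 in scramble libraries and 0.791, 0.88 and 0.82 in Hdac4-shRNA libraries, without overlap. Of the 21 genes on this list, 17 were lower, 2 were higher and 2 were not called, from Ube2c at -2.20 to Cdc26 at 0.32. The core subunits of the anaphase-promoting complex were spread from -0.79 for Cdc23, -0.60 for Cdc27 and -0.56 for Anapc11 to 0.29 for Anapc2 and 0.32 for Cdc26, which were higher, and Anapc7 and Anapc10 were not called. Its activators were at -1.64 for Cdc20 and -1.01 for Fzr1. The kinase Cdk1 (-1.60) and cyclin B1 (Ccnb1, -2.00) also fell. Ube2c shares 592 of its 2600 exon bases with Tnnc2.

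Of 8 other factors of the mitotic chromosome, 7 were lower and 1 was higher, and 6 were lower with library size alone, with upper quartile normalization, with at least 10 counts in every library, without scramble replicate 1 or without Hdac4-shRNA replicate 1. Topoisomerase II alpha (Top2a), which works beside condensin, was at -1.55 and its isoform Top2b, which is also made in resting cells, at -0.40. The chromokinesins Kif4 and Kif22 were at -1.42 and -1.66, and Mki67, which coats mitotic chromosomes and marks dividing cells, was at -1.14. The 95% intervals of Ncaph, Ncapg and Espl1 lay below that of Mki67 (-1.24 to -1.05) and that of Ncapd2 lay above it, whereas those of Rad21, Smc2 and Smc4 overlapped it, and these differences between genes were not tested. The histone demethylase Phf8 rose by 1.18.

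**Figure D3:**
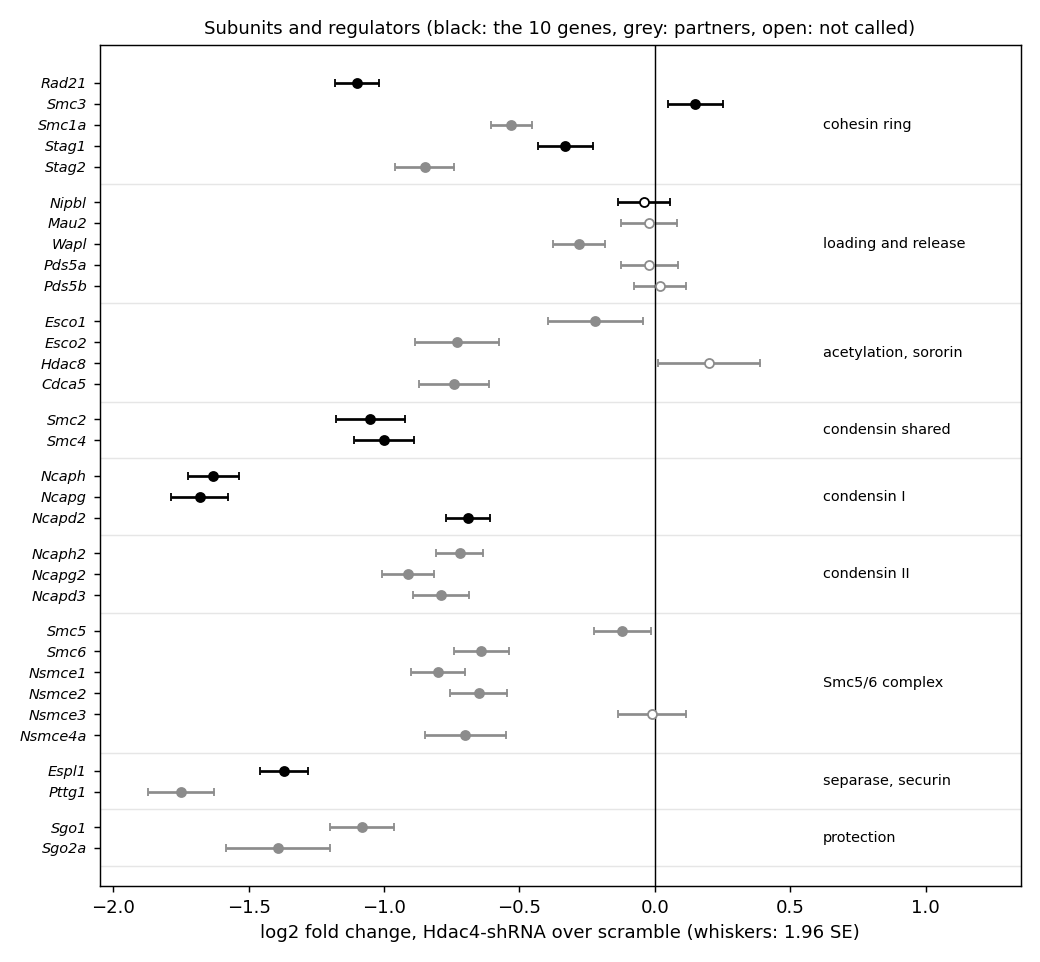
The plot shows the log2 fold change of Hdac4-shRNA over scramble with whiskers of the 95% interval for the 10 genes (black) and some of their partners (grey), grouped by complex, with open points for genes not called. Condensin I ranges from -1.68 to -0.69 and condensin II from -0.91 to -0.72, and the whiskers of Nipbl, Mau2, Pds5a and Pds5b cross 0.

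The genes whose values over the 6 libraries were closest to those of a member were named by the distance between log2 CPM profiles centred on the gene's mean, among 10814 genes with at least 100 counts on average. For Espl1 these were Melk (distance 0.0413), Cdca8 (0.0629) and Adcy7 (0.0735), and for Rad21 they were Kif11 (0.0304), Tmem64 (0.0394) and Gpd2 (0.0541). Ncapg was nearest to Kif22 (0.0726), Ncaph to Ehd4 (0.0424), and both Smc2 (0.0844) and Smc4 (0.0638) to Meis1. The others were nearest to genes with little change, Smc3 to Cd2ap (0.0556), Stag1 to Ipo7 (0.0522) and Nipbl to Atg13 (0.0513), and Ncapd2 was nearest to Dab2ip (0.0496). With 2 groups, such a distance mainly measures the size of the difference between them.

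Rad21, Nipbl and Espl1 are all on chromosome 15, where the median over 597 tested genes was -0.19 on the log2 scale. The 25 tested genes on each side of Rad21 had a median of -0.36, with 28 of 50 called lower, and those around Espl1 had a median of -0.33, with 31 of 50 called lower. Around Nipbl, which was not called, 26 of 48 were called lower, with a median of -0.20. With 10 genes on each side the medians were -0.04 for Rad21, -0.11 for Espl1 and -0.29 for Nipbl. Around Smc4 and Ncapd2, both of which fell, the medians were positive, 0.47 and 0.23 with 25 genes on each side and 0.11 and 0.45 with 10. The medians around Ncaph (-0.17) and Ncapg (-0.13) were small beside the changes of these genes. The genes around Smc3 had a median of 0.24, against 0.15 for Smc3 itself, and the median was 0.37 over the 495 tested genes of chromosome 19. Whether the groups differ in chromosome content was not tested.

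**Figure D4:**
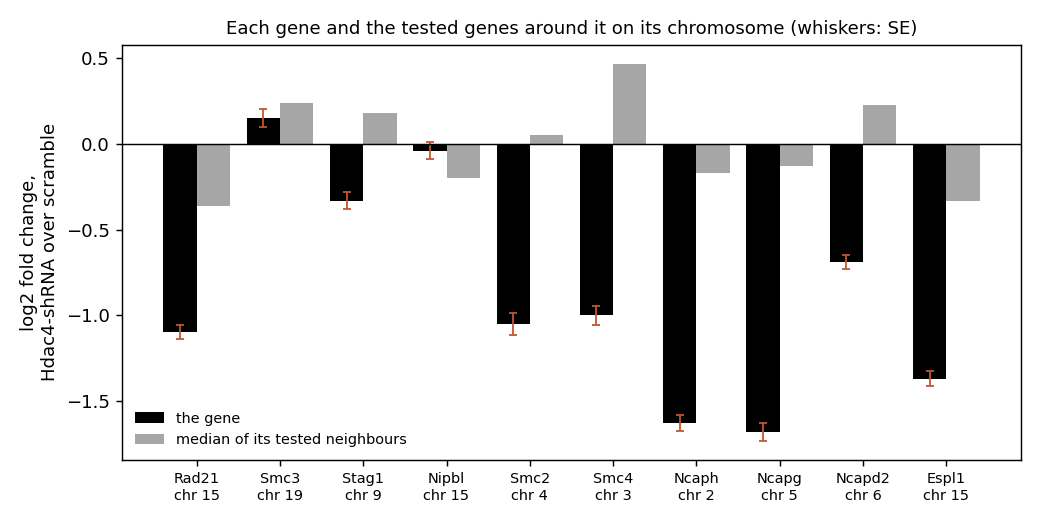
The bars show the log2 fold change of each of the 10 genes (black, with whiskers of 1 SE) and the median of up to 25 tested genes on each side of it on the same chromosome (grey). The neighbours of Rad21 and Espl1 have medians of -0.36 and -0.33, and those of Smc4 a median of 0.47, which is 0.11 with 10 genes on each side.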

How the data were processed

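RNA from 3 scramble and 3 Hdac4-shRNA samples of MC3T3-E1 cells was sequenced after poly-A selection with a kit that keeps no strand. The authors deposited raw counts of reads per Ensembl gene, without normalization. The submitters' processing notes name STAR 2.7.3a, HTSeq 0.12.4 and mm10. The annotation, the counting options and the authors' test are not given in the sources used here. Summary lines for reads outside genes, shared between genes or aligned to several places (3.17% to 5.07%, 5.84% to 6.51% and 3.88% to 4.77% of a library) were left out. Reads that overlap 2 genes are not counted on either under the default setting of HTSeq, so shared exon bases can lower a count.

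Of 53801 identifiers, 53706 were found in GENCODE M21 (GRCm38). The groups were compared in edgeR 4.0.16 (R 4.3.3, quasi-likelihood F test) after filterByExpr and TMM normalization, with Benjamini-Hochberg adjustment over all tested genes. Each SE is the log2 fold change divided by the square root of F, and intervals are 1.96 SE. Levels are CPM with TMM factors, as mean and SD. Alternatives were DESeq2 1.42.0 and its size factors, library size alone, upper quartile normalization, limma-voom (limma 3.58.1), other filters, a replicate block, log2 fold change limits of 0.5 and 1, and fits without 1 library. The edgeR script was tested on simulated data. Libraries of a group differed by more than sampling noise (chi-square per degree of freedom 3.23 to 8.36), and their depth gave the 10 genes at least 1044 counts in every library. Promoter windows are from RefSeq. Figures were drawn with matplotlib 3.10.9. The genes named are the 10 members, genes of the pathway lists, Hdac4, marker genes at or near 0, the tested genes most like each member and, for shared exon bases, the genes that overlap a named gene. Col1a1, Spp1 and Tubb3 are named with the marker sums. The members and lists were chosen with earlier results of these data known.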

Additional observations from a re-analysis of the deposited data

Results flagged for a closer look

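In data outside the gene counts, the share of reads outside annotated genes was 4.79% ± 0.243 (SD, n = 3) in Hdac4-shRNA libraries and 3.28% ± 0.122 in scramble libraries, above the control level in every Hdac4-shRNA library. These reads are not assigned to any of the 10 genes.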

How the results depend on the processing

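No library left out and no other tool changed the direction or the call of Rad21, Stag1, Smc2, Smc4, Ncaph, Ncapg, Ncapd2 and Espl1 in any of 14 alternative fits, with log2 fold changes from -1.13 to -1.01 for Rad21, -1.40 to -1.28 for Espl1 and -1.73 to -1.59 for Ncapg. Smc3 lost its call without scramble replicate 2 or without Hdac4-shRNA replicate 3, and its log2 fold change ranged from 0.10 to 0.21 when single libraries were left out. Nipbl, not called in any fit, changed sign with library size alone (0.01) and upper quartile normalization (0.05), and ranged from -0.09 to 0.00 when single libraries were left out. A log2 fold change limit of 0.5 left 6458 called genes (2879 lower, 3579 higher) and 7 of the 10 members, without Smc3 and Stag1, and a limit of 1 left 3940 (1543 lower, 2397 higher), 5 of the 10 members, all 5 lower, and 22 of the 54 called partner genes. With the replicate block, 5441 genes were lower and 5523 higher, with 9 of the 10 members called and Smc3 at an edgeR adjusted p = 0.00166. Over all tested genes, the deviations of same-numbered libraries from their group means were hardly correlated (-0.0111, 0.027 and 0.0166). Among the members, however, Smc3, Stag1, Smc2, Smc4 and Ncapg were lowest of their group in replicate 2 of both groups. Correlations over all genes cannot settle whether the numbers pair the groups. No scaling moved the median log2 fold change of all genes by over 0.089, and testing every gene with a count moved it to 0.252. With the longest coding transcript as the length, the levels of 8 of the 10 genes moved by more than 1 SD, and the Rad21 to Smc3 ratio was 3.35 and 1.41. In the last 150 bases of the promoter window, TTTGAA was found for 3 of the 7 members with a window, against 8.01% of all windows. CCAAT was found there for 3 of the 7, against 23.4% of all windows, and for 5 in the whole window.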
